A study of Mus musculus with 21 samples.

Results

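The complement genes C1qa, C1qb, C1qc, C3, C4b, C3ar1, Serping1 and Cd59a were measured by RNA-seq in whole brains of 21 SAMP8 mice. SAMP8 is a senescence-accelerated inbred mouse strain used as a model of early cognitive decline. The genes were chosen by name as components, receptors and inhibitors of complement. Of the 9 names, 8 had a row among the 16318 genes, and C5ar1 was not analysed here. HsTX1[R14A] is a peptide analog of a scorpion toxin that blocks the potassium channel Kv1.3. Injected under the skin on alternate days (dose 1 mg/kg, over 8 weeks), it was given to 3 females and 6 males. Phosphate-buffered saline (PBS) was given on the same schedule to 6 females and 6 males. Dosing began at 4 months of age, and all brains came from SAMP8 mice of about 6 months, with 1 library per mouse. Controls were thus senescence-accelerated too, no normally aging strain is compared here, and a whole brain mixes regions and cell types.

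Complement is a cascade of proteins that tags cells and debris for removal. C1q, built from the chains A, B and C, recognizes a target and starts the classical pathway; C4 and then C3 are cleaved, fragments of C3 coat the target, and the small fragment C3a acts on its receptor C3aR1. In the brain C1q mRNA is made mainly by microglia, C4 and C3 are made in part by astrocytes, and C1q and C3 are known to mark synapses for removal during development and in models of neurodegeneration. Serping1 encodes the C1 inhibitor, which blocks the proteases attached to C1q, and Cd59a encodes a membrane-anchored protein that stops the final pore from forming.

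The C1q chains are encoded side by side on the minus strand of chromosome 4 (GRCm38), with C1qb at positions 136880129 to 136886187, C1qc at 136889804 to 136893065 and C1qa at 136895917 to 136898803. C3 lies on chromosome 17 at 57203970 to 57228136 and contains the microRNA gene Mir6978 on the same strand. C4b also lies on chromosome 17, at 34728380 to 34743882. Its near-identical neighbor C4a makes the split of reads between them uncertain. C3ar1 lies on chromosome 6 at 122847138 to 122856161, and Serping1 on chromosome 2 at 84765387 to 84775444, all on the minus strand. Cd59a lies on the plus strand of chromosome 2 at 104095801 to 104115354 and has a close paralog, Cd59b, so its read assignment carries the same doubt.

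Promoter windows, 250 bases before to 50 bases after the RefSeq start of the gene, were at hand (GRCm38.p6) for C1qb, C1qc, C3, C3ar1 and Cd59a. They were searched on both strands for the core letters of 5 motifs. These were GAGGAA (bound by PU.1, the myeloid lineage factor), TGANTCA (AP-1), TTGCNCAA (C/EBP), GAAA followed after any 2 bases by GAAA (interferon regulatory factors) and GGG followed after any 2 bases by TTTCC (NF-kB). The windows of the 3 genes called for treatment, and of C1qc as the other C1q chain at hand, are shown, with matches in capitals. They lie at chr4:136886151-136886450, chr4:136892865-136893164 and chr6:122856108-122856407 on the minus strand and at chr2:104095551-104095850 on the plus strand.
C1qb: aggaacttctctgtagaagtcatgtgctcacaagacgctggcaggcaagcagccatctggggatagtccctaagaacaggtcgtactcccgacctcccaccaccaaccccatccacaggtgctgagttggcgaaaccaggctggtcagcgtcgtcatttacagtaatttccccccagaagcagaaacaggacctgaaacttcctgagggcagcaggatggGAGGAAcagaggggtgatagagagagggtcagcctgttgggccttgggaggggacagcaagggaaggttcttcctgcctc
C1qc: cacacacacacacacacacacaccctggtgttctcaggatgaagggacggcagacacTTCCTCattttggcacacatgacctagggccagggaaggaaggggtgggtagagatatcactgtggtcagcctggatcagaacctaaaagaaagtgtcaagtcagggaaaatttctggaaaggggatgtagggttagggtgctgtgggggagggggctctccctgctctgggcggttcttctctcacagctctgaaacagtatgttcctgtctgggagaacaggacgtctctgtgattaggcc
C3ar1: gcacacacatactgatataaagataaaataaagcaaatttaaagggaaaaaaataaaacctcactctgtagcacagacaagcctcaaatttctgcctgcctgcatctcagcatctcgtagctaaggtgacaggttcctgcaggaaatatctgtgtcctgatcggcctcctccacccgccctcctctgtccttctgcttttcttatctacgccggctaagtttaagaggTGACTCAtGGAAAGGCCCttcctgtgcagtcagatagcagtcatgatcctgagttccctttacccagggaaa
Cd59a: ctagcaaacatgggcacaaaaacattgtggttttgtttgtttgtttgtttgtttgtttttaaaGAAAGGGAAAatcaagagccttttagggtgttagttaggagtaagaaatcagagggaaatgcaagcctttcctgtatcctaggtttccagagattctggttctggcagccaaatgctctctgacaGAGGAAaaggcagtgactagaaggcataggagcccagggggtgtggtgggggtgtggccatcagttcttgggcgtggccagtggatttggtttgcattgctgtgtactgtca

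GAGGAA was found 30 bases before the start in C1qb, 193 bases before it on the opposite strand in C1qc, and 62 bases before it in Cd59a. This core is common, being present in 28.3% of 32851 promoter windows of the same length. The C3ar1 window held TGANTCA 22 bases before the start (7.81% of windows) and, near it without overlap, the NF-kB core on the opposite strand 14 bases before the start (1.63%). TGANTCA is its own reverse complement, so the match on both strands is a single site. The Cd59a window held the interferon regulatory factor core 187 bases before the start (3.44%). TTGCNCAA, found in 2.94% of all windows, matched in none of the 5, and the C3 window held none of the 5 motifs. These matches describe letters in the window and not binding. Distances count from the RefSeq start that sets each window, which can differ from the gene boundaries given above. For C1qc that start lies inside the gene, whose boundary is at 136893065, so its match is nearer to the boundary.

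Libraries held 14917174 to 47613792 estimated counts, and totals did not differ between treatments beyond their spread (exact permutation within sex, two-sided, p = 0.405, n = 12 and 9). Xist was at least 261 CPM (counts scaled to library size) in every female and at most 3.39 CPM in every male, matching the labels. Both of the following library measures differed between treatments. The length slope, the slope of log2 CPM (each gene centered on its mean) on log2 transcript length, was -0.076 ± 0.161 (SD, n = 12) with PBS and 0.102 ± 0.119 (n = 9) with HsTX1[R14A] (exact permutation p = 0.00631). The microglia marker level, the mean centered log2 CPM of 18 microglia genes that include none of the complement genes, was 0.077 ± 0.088 with PBS and -0.103 ± 0.178 with HsTX1[R14A] (exact permutation p = 0.00371). Microglia markers were present in all brains, summing to 597 to 804 CPM with PBS and 509 to 716 CPM with HsTX1[R14A], and 0 of the 18 were below 1 CPM in every mouse. Library names took a pair of forms, one carried by 15 mice (10 of them given PBS) and the other by 6 (2 of them given PBS); what the forms stand for is not given in the sources used here.

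Per kilobase of the longest transcript, the genes spanned about 2 orders of magnitude. C1qa averaged 38.3 ± 7.35 CPM per kb over the 21 mice (SD), C1qb 29.2 ± 5.68, C1qc 16.7 ± 2.54, Cd59a 9.31 ± 2.87, C4b 3.48 ± 1.37, Serping1 2.97 ± 1.27, C3 0.331 ± 0.172 and C3ar1 0.330 ± 0.0901. The upper part of this order was stable, with C1qa above C1qb in 20 of 21 mice, C1qb above C1qc in 21 and C1qc above Cd59a in 20. Neighbors in the lower part did not all separate. C4b was above Serping1 in 14 of 21 mice, and C3 above C3ar1 in 9 of 21. Among the C1q chains, whose proteins assemble in equal numbers, C1qa made up 45.4% ± 2.71 of the C1q mRNA per kb, C1qb 34.6% ± 2.48 and C1qc 20.01% ± 1.75. Mice differed least in C1qc, with a highest value 1.76 times the lowest, and most in C3, with a ratio of 7.01 and only 11 to 102 reads per mouse.

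**Figure D1:**
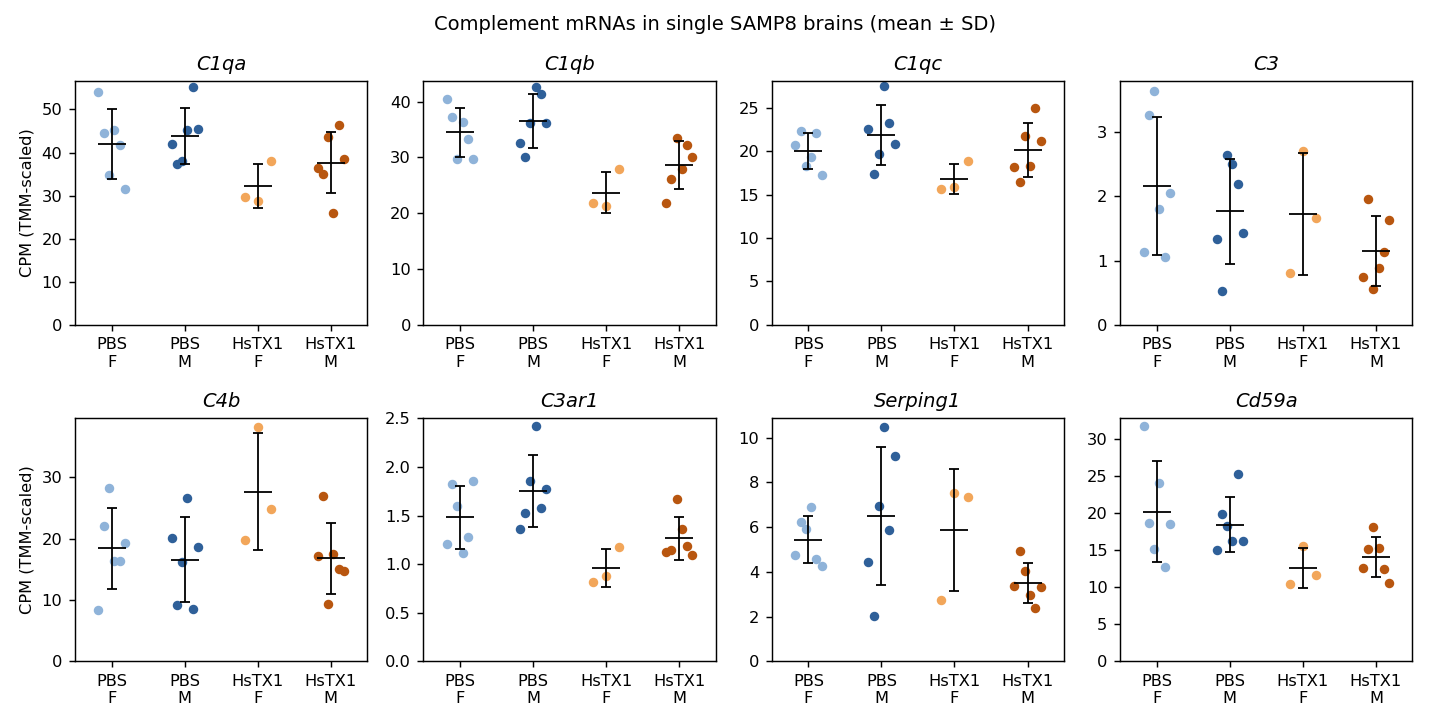
Level of each complement mRNA (CPM after TMM scaling, linear axes from 0) in single brains, with PBS in blue, HsTX1[R14A] (HsTX1 on the axis) in orange, F for females and M for males; bars are mean ± SD of 6, 6, 3 and 6 mice. C1qb, C3ar1 and Cd59a sit lower with HsTX1[R14A], while C3, C4b and Serping1 scatter widely within groups.

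Whether Kv1.3 blockade moved these mRNAs was asked by comparing HsTX1[R14A] with PBS, with sex in the model. C1qb fell by 25.7%, the C3a receptor gene C3ar1 fell by 31.1% and Cd59a fell by 29.6%, and 0 of the 8 genes rose (edgeR quasi-likelihood test, adjusted p at most 0.05 over 16303 genes). In the same test 31.6% of all genes were called, 16.1% as lower and 15.5% as higher, and the 3 of 8, all of them lower, are to be read against these shares. The median log2 fold change of the 8 genes was -0.44 (range -0.54 to 0.25), beside -0.01 for all genes tested. The 8 genes were not tested as a set, and the C1q chains among them varied together across mice. In whole-brain RNA, fewer cells of a type and less RNA per cell cannot be told apart.

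C1qb ranged from 29.6 through a median of 36.2 to 42.5 CPM with PBS, and from 21.3 through 27.9 to 33.4 CPM with HsTX1[R14A]. All 9 treated mice were below the PBS median, and 6 of 9 were below the lowest PBS mouse, though the groups still overlapped. The log2 fold change was -0.43 (SE 0.091, adjusted p = 0.0151). Its partner C1qa ranged from 31.6 to 55.2 CPM (median 43.2) with PBS and from 26.02 to 46.4 CPM (median 36.4) with HsTX1[R14A], with 7 of 9 treated mice below the PBS median. Its log2 fold change of -0.28 (SE 0.11) did not pass (adjusted p = 0.0530); DESeq2 placed it under the threshold (adjusted p = 0.0411), as did 1 other alternative and the omission of any 1 of 6 mice. C1qc ranged from 17.3 to 27.5 CPM (median 20.9) with PBS and from 15.6 to 25.0 CPM (median 18.4) with HsTX1[R14A]. These ranges overlapped over most of their length, and the log2 fold change was -0.17 (SE 0.088, adjusted p = 0.127).

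The central components C4b and C3 were not called. C4b, 1 of the 2 mouse C4 genes, had a mean of 17.5 ± 6.52 CPM with PBS and 20.4 ± 8.52 CPM with HsTX1[R14A] (log2 fold change 0.25, SE 0.23, adjusted p = 0.388). Treated mice lay on both sides of the PBS median, 5 below and 4 above, and 1 treated female at 38.2 CPM was above every PBS mouse. The sign of the C4b difference turned when the length slope was added to the model (log2 fold change -0.35, adjusted p = 0.459). C3 had a mean of 1.97 ± 0.936 CPM with PBS and 1.34 ± 0.701 CPM with HsTX1[R14A] (log2 fold change -0.48, SE 0.30, adjusted p = 0.217). Its coefficient of variation was 47.6% in one group and 52.2% in the other.

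C3ar1, the receptor for C3a, is carried in the brain mainly by microglia and macrophages. It ranged from 1.11 through a median of 1.58 to 2.42 CPM with PBS, and from 0.813 through 1.15 to 1.67 CPM with HsTX1[R14A]. Of 9 treated mice, 8 were below the PBS median and 3 below the lowest PBS mouse, and 5 of 12 PBS mice were above every treated mouse. The log2 fold change was -0.54 (SE 0.14, adjusted p = 0.0170), which rests on 16 to 67 reads per mouse.

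Of the inhibitors, Cd59a fell and Serping1 was not called. Cd59a ranged from 12.7 through a median of 18.4 to 31.7 CPM with PBS and from 10.4 through 12.5 to 18.1 CPM with HsTX1[R14A]. All 9 treated mice were below the PBS median and 5 were below the lowest PBS mouse, and its log2 fold change was -0.51 (SE 0.15, adjusted p = 0.0222). This call was lost when PBS male 90 or treated female 98 was left out (adjusted p = 0.0518 and 0.0516). It was also lost in 7 of 14 other alternatives, among them the name form as a term (log2 fold change -0.40, adjusted p = 0.0562), a surrogate variable (-0.30, adjusted p = 0.0986) and the removal of length and GC trends (-0.21, adjusted p = 0.147). Serping1 had a mean of 5.97 ± 2.27 CPM with PBS and 4.30 ± 1.93 CPM with HsTX1[R14A], with ranges of 2.01 to 10.5 and 2.38 to 7.54 CPM (log2 fold change -0.45, SE 0.25, adjusted p = 0.156). The lowest single value belonged to a PBS male, so the ranges overlapped at both ends.

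Within the 15 mice of the larger name form, the log2 fold changes were -0.48 for C1qb, -0.53 for C3ar1 and -0.47 for Cd59a, close to the values over all mice, with adjusted p = 0.0575, 0.0707 and 0.0873. Within the 6 mice of the smaller form they were -0.32, -0.35 and -0.25, with adjusted p = 0.855 for each. In both forms 0 genes were called by edgeR, with 5797 and 532 genes at an unadjusted p under 0.05.

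The ratio of C1qb to its partner chain C1qc, taken from the same values, was lower with HsTX1[R14A]. The log2 ratio of C1qb to C1qc within a brain was 0.76 ± 0.13 (SD, n = 12) with PBS and 0.50 ± 0.13 (n = 9) with HsTX1[R14A]. PBS mice ranged from 0.53 to 0.96 and treated mice from 0.26 to 0.66, so only the lower PBS and upper treated mice overlapped. Averaged over the sexes the difference was -0.27 (exact permutation within sex, two-sided, p = 0.000451, adjusted over 3 ratios p = 0.00135). The ratio cancels only what scales both mRNAs equally in a brain. The length slope had Pearson r = -0.54 with C1qb and -0.24 with C1qc after group means were subtracted, so it may not cancel. The treatment difference in the ratio was not tested with the length slope as a term. The difference was -0.30 in the 15 mice of the larger name form (exact permutation p = 0.00170) and -0.08 in the 6 of the other (p = 0.375, where 0.125 is the smallest p possible). The log2 ratio of C1qb to C1qa was -0.27 ± 0.12 with PBS and -0.41 ± 0.22 with HsTX1[R14A] (exact permutation p = 0.0490, adjusted p = 0.0736), and that of C1qa to C1qc was 1.03 ± 0.19 and 0.90 ± 0.17 (p = 0.179). The ratios were chosen after the values of the chains had been seen. They reuse those values, so they are not separate support for the fall of C1qb.

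**Figure D2:**
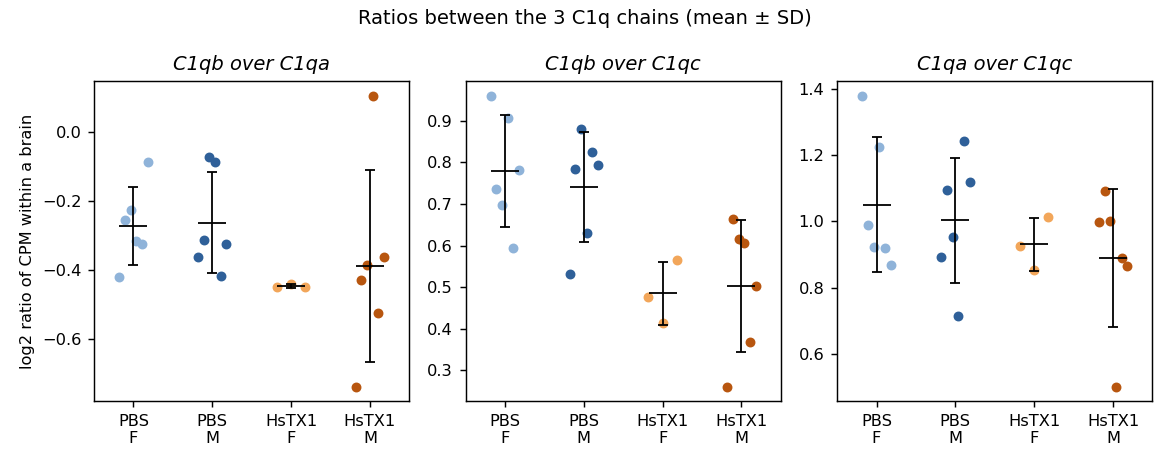
Log2 ratios of CPM between C1q chains in single brains (log2 axes that do not start at 0), by treatment and sex (F females, M males, HsTX1 for HsTX1[R14A]); bars are mean ± SD of 6, 6, 3 and 6 mice. The C1qb over C1qc ratio lies between 0.53 and 0.96 with PBS and between 0.26 and 0.66 with HsTX1[R14A].

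After the mean of each of the 4 groups was subtracted, the 8 genes fell into loose sets across the 21 mice. The C1q chains varied together. C1qb and C1qc had Pearson r = 0.77 and Spearman rho = 0.76 (permutation within groups, 100000 resamples, p = 0.000450 and 0.000530, adjusted over 28 pairs p = 0.0126 and 0.00635). C1qa had r = 0.72 with C1qb (rho = 0.80, p = 0.00107 and 0.000150, adjusted p = 0.0150 and 0.00420) and r = 0.68 with C1qc (rho = 0.73, p = 0.00162 and 0.000680, adjusted p = 0.0151 and 0.00635). Without the 2 mice farthest from the median of the first gene the 3 values were 0.74, 0.81 and 0.68, and in the 15 mice of the larger name form 0.83, 0.80 and 0.69. The receptor C3ar1 did not join this set by these tests, with r = -0.11, 0.30 and 0.27 with C1qa, C1qb and C1qc. It had only 16 to 67 reads per mouse, and counting error lowers r, so these values cannot show that C3ar1 varied apart from the chains.

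C3 varied with C4b (r = 0.66, rho = 0.61, permutation p = 0.00316 and 0.00781, adjusted p = 0.0221 and 0.0547) and with Serping1 (r = 0.66, rho = 0.57, p = 0.00545 and 0.0145, adjusted p = 0.0305 and 0.0814). Without the 2 mice farthest in C3, the first r was 0.59 and the second 0.41, so the relation of C3 to Serping1 rests in part on those mice. In the 15 mice of the larger name form they were 0.73 and 0.66. These were 5 of 28 pairs with an adjusted Pearson p at most 0.05, and each of the other 23 pairs was above it.

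**Figure D3:**
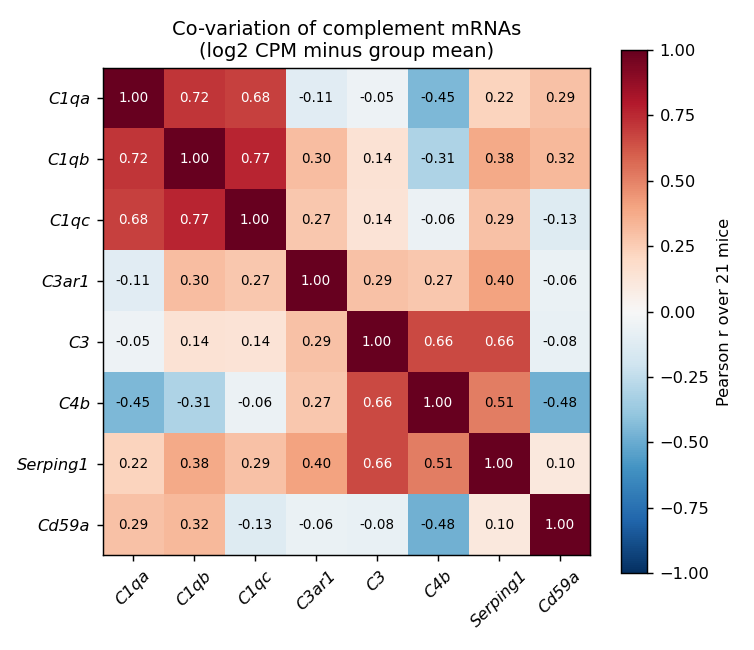
Pearson r between the log2 CPM of each pair of complement genes over 21 mice after subtracting group means (color scale from -1 to 1). The C1q chains form one block with r of 0.68 to 0.77, and C3 pairs with C4b and with Serping1 at r = 0.66.

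Levels were next set against cell type markers and the length slope over the same centered values. Of 56 relations of the 8 genes to 7 library measures, 15 had an adjusted Pearson p at most 0.05. C1qa, C1qb and C1qc followed the microglia marker level, with r = 0.80, 0.82 and 0.80 and rho = 0.83, 0.80 and 0.82 (permutation p = 1e-05, 2e-05 and 1e-05, where 1e-05 is the smallest the resamples can give, adjusted p = 0.000187, 0.000280 and 0.000187). Leaving out the 2 farthest mice gave r = 0.78, 0.83 and 0.77, and the 15 mice of the larger name form gave 0.77, 0.87 and 0.78. C3ar1 had r = 0.20 with that level (adjusted permutation p = 0.641). It had 16 to 67 reads per mouse, and how far counting error lowered this r was not tested.

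Serping1 followed the markers of leptomeningeal fibroblasts, collagen-producing cells of the membranes around the brain, with r = 0.89 and rho = 0.91 (permutation p = 1e-05 for both, adjusted p = 0.000187 and 0.000373; r = 0.86 without the 2 farthest mice and 0.91 in the larger name form). These 8 fibroblast markers summed to 81.6 to 216 CPM with PBS and 90.7 to 217 CPM with HsTX1[R14A], and 0 of 8 were called for treatment, beside 31.6% of all genes. C3 followed the astrocyte marker level (r = 0.76, rho = 0.65, permutation p = 0.000600 and 0.00315, adjusted p = 0.00420 and 0.0220; r = 0.60 without the 2 farthest mice and 0.74 in the larger name form). The astrocyte markers summed to 3413 to 5087 CPM with PBS and 3413 to 5128 CPM with HsTX1[R14A], with 4 of 10 called lower and 0 higher, beside 16.1% lower and 15.5% higher among all genes.

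C4b followed the length slope (r = 0.81, rho = 0.71, permutation p = 7e-05 and 0.000770, adjusted p = 0.000784 and 0.00616; r = 0.69 without the 2 farthest mice and 0.88 in the larger name form). C1qa and Cd59a followed it in the opposite direction, with r = -0.74 and -0.73 and rho = -0.75 and -0.55 (permutation p = 0.000560 and 0.00151 for r, 0.000610 and 0.0227 for rho, adjusted p = 0.00420 and 0.00940 for r, 0.00569 and 0.0908 for rho, so that of Cd59a does not pass by rank). Without the 2 farthest mice these were -0.63 and -0.51, and in the larger name form -0.77 and -0.89. The longest transcripts of C1qa, Cd59a and C4b have 1040, 1806 and 5379 bases, beside a median of 3283.5 over the genes tested. The 7 further relations past the threshold were those of the endothelial and mural markers with C4b (r = 0.78, rho = 0.74), C1qa (r = -0.63, rho = -0.60), C1qb (r = -0.56, rho = -0.55) and Cd59a (r = -0.66, rho = -0.44), of the astrocyte markers with Serping1 (r = 0.79, rho = 0.71) and C4b (r = 0.59, rho = 0.47), and of the oligodendrocyte markers with C3 (r = 0.55, rho = 0.57), with adjusted permutation p from 0.00149 to 0.0481 for r. Without the 2 farthest mice these ran from -0.50 to 0.65, and Serping1 with the astrocyte markers was at 0.53. Some did not pass by rank. The adjusted permutation p for rho was 0.0690 for C1qb and 0.217 for Cd59a with the endothelial and mural markers. It was 0.192 for C4b with the astrocyte markers and 0.0690 for C3 with the oligodendrocyte markers.

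**Figure D4:**
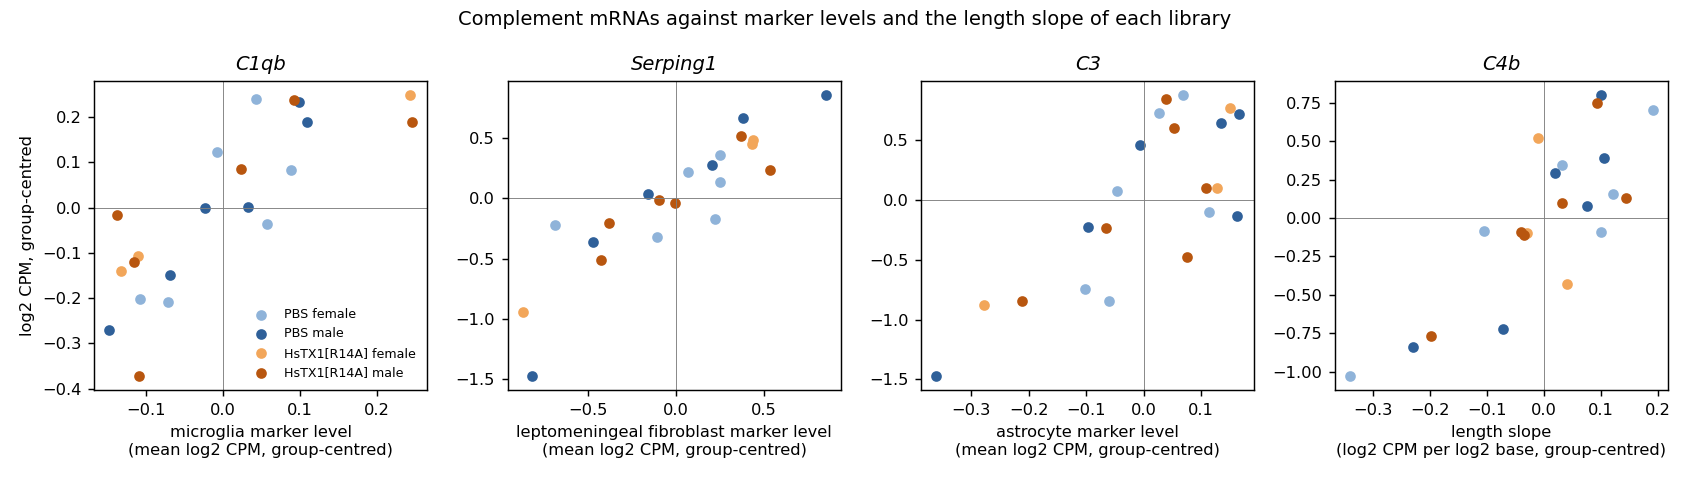
Log2 CPM of C1qb, Serping1, C3 and C4b against the library measure named on each horizontal axis (all values minus their group mean, 1 point per mouse, colored by group). The points rise from lower left to upper right, with r = 0.82, 0.89, 0.76 and 0.81.

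Since the length slope and the microglia marker level both differed between treatments and tracked some of these genes, each was added to the model in turn. With the length slope, 0 of 8 genes and 0% of all genes were called (edgeR, 1865 genes at an unadjusted p under 0.05). C1qb then had a log2 fold change of -0.28 (adjusted p = 0.296), Cd59a of -0.13 (adjusted p = 0.698), C1qa of -0.03 (adjusted p = 0.937) and C3ar1 of -0.61 (adjusted p = 0.234). With the microglia marker level, 0 of 8 genes and 0.00613% of all genes were called (1 gene, 1689 at an unadjusted p under 0.05). C1qa and C1qc were then at 0.02 and 0.06 (adjusted p = 0.946 and 0.721), C1qb at -0.18 (adjusted p = 0.478), C3ar1 at -0.43 (adjusted p = 0.461) and Cd59a at -0.45 (adjusted p = 0.478). Of the 18 microglia markers, 8 were called lower and 0 higher, with 13 log2 fold changes negative and 5 positive. P2ry12, a purinergic receptor of resting microglia, was 116 ± 31.4 CPM with PBS and 77.2 ± 17.6 CPM with HsTX1[R14A], and Tyrobp, a signaling adaptor, 18.2 ± 5.99 and 11.5 ± 3.28 CPM (adjusted p = 0.0151 and 0.0172). Tmem119, another microglia marker, was at 16.4 ± 1.93 and 15.5 ± 2.11 CPM (adjusted p = 0.473). Those with a positive log2 fold change, none of them called, were Sall1 (0.49), Laptm5 (0.30), Csf1r (0.28), Slc2a5 (0.13) and Selplg (0.04). Mrc1 and Pf4, markers of macrophages at the brain borders, were among 5 tested genes of the border macrophage and leukocyte list and also fell, with log2 fold changes of -0.78 and -0.68 (adjusted p = 0.0193 and 0.0387). Pf4 was low, at 0.483 ± 0.223 CPM with PBS and 0.306 ± 0.0963 CPM with HsTX1[R14A]. The other tested genes of this list were not called. Their log2 fold changes were -0.22 for Cd163, -0.34 for Lyve1 and 0.11 for Ly6c2 (adjusted p = 0.516, 0.380 and 0.494 by edgeR). That list summed to 6.66 to 12.9 CPM with PBS and 4.68 to 9.30 CPM with HsTX1[R14A]. Of the other cell type lists, 4 of 8 oligodendrocyte markers were called lower, 3 of 12 endothelial and mural and 2 of 10 neuron markers higher, and 0 of 10 choroid plexus and 0 of 5 erythrocyte genes were called, to be read against the 16.1% lower and 15.5% higher among all genes. Because both added terms differed between treatments, the models above cannot tell a treatment difference from a difference in the added term. The part of these markers in the complement differences was not tested.

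**Figure D5:**
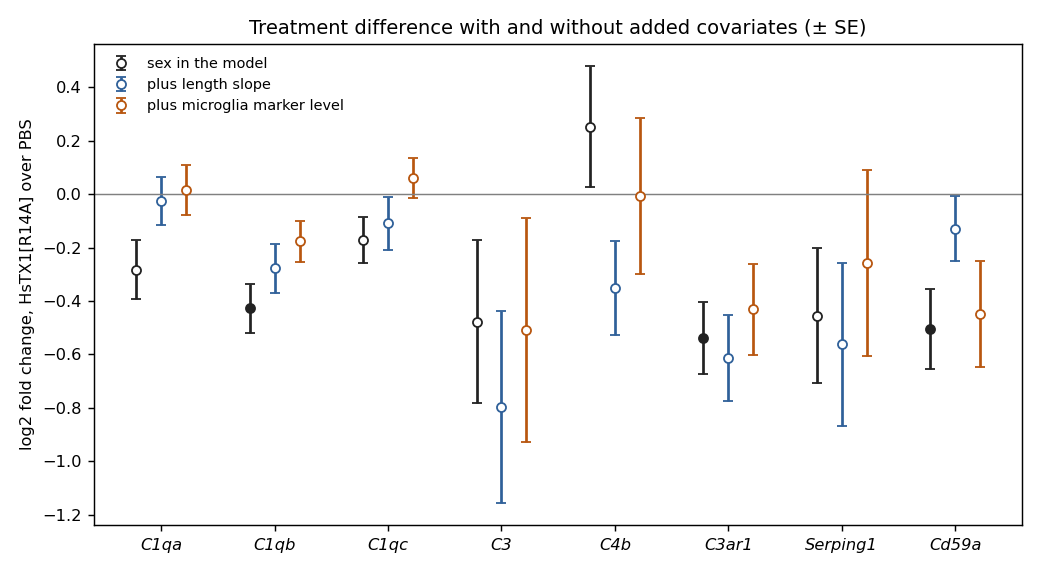
Treatment difference (log2 of HsTX1[R14A] over PBS, ± SE) for each gene with sex in the model, and with the length slope or the microglia marker level added; filled points have an adjusted p at most 0.05. C1qb, C3ar1 and Cd59a are filled with sex alone and no point is filled with either added term; C4b changes sign with both.

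Males and females were compared with treatment in the model. Of the 8 genes, 0 were called between males and females, beside 0.0552% of all genes (9 genes by edgeR, 1765 at an unadjusted p under 0.05), and voom and DESeq2 also called 0 of 8. The smallest adjusted p, 0.446 by edgeR, was shared by C3ar1 and C1qc, with log2 differences (males over females) of 0.28 (SE 0.13) and 0.18 (SE 0.088).

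Whether the treatment difference depended on sex was tested by an interaction term. Here 0 of 8 genes and 0% of all genes were called (edgeR, 270 genes at an unadjusted p under 0.05; voom and DESeq2 also called 0). The largest interaction among the 8 was that of Serping1. Its treated females were at 2.75, 7.33 and 7.54 CPM, beside 4.27 to 6.89 CPM in PBS females, while treated males ranged from 2.38 to 4.95 CPM and PBS males from 2.01 to 10.5 CPM. The low treated female lay below all PBS females and the other pair above them. The log2 fold change was 0.12 in females and -0.87 in males, with an interaction of -0.996 (SE 0.47, unadjusted p = 0.0478, adjusted p = 0.99996), so the sexes were not shown to differ. C1qb had a log2 fold change of -0.54 in females and -0.35 in males, C3ar1 of -0.63 and -0.47, and Cd59a of -0.68 and -0.40. Within females and within males alone, 0% of all genes were called in each (edgeR, 4539 and 3913 genes at an unadjusted p under 0.05), and so none of these values passed.

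Beyond these genes, 51 other complement genes were listed, of which 29 were tested. Of the 29, 3 rose and 2 fell, with a median log2 fold change of -0.02, beside the 31.6% called among all genes. The 3 that rose were Csmd1 and Csmd2, large membrane proteins with complement control domains that are abundant in neurons (log2 fold changes 0.49 and 0.57, adjusted p = 0.0267 and 0.0399), and Itgax, a chain of complement receptor 4 (0.44, adjusted p = 0.0327). C1qbp, a mostly mitochondrial protein that also binds C1q, fell by 0.24 on the log2 scale (adjusted p = 0.0216), and Cpn1, the catalytic chain of a carboxypeptidase that inactivates C3a, fell by 0.48 (adjusted p = 0.0407). Itgax and Cpn1 were both low. Itgax was at 0.542 ± 0.115 CPM with PBS and 0.715 ± 0.149 CPM with HsTX1[R14A], and Cpn1 at 0.639 ± 0.183 and 0.452 ± 0.0960 CPM. The most abundant of those not called were the fluid-phase inhibitors Clu, at 755 ± 109 CPM with PBS and 762 ± 116 with HsTX1[R14A], and Vtn, at 39.9 ± 6.30 and 40.7 ± 6.26, and the membrane inhibitor Susd4, at 86.5 ± 13.6 and 97.6 ± 9.21. The near-copies C4a and Cd59b had log2 fold changes of 0.24 and -0.34 (adjusted p = 0.259 and 0.138), each with the sign of its partner. The list count was not steady: it was 0 without PBS male 90 and 8 without PBS male 102 or treated male 93.

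By initiation, amplification and termination, 0 of 6 tested genes for other classical and lectin initiators were called, with all 6 log2 fold changes negative and a median of -0.07. Of other convertase and alternative pathway genes 0 of 3 were called (median 0.24), and of terminal components 0 of 2, both below 1 CPM in every mouse. Of other receptors 1 of 4 was called, and of other inhibitors 4 of 14. All of these counts are to be read against the 31.6% called among all genes. Itgam and Itgb2, which form complement receptor 3 on microglia, were at 19.2 ± 2.76 and 4.54 ± 0.924 CPM with PBS and 18.4 ± 3.08 and 4.42 ± 0.611 CPM with HsTX1[R14A] (adjusted p = 0.785 and 0.896).

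The genes whose pattern over the 21 mice was most like each complement gene, among 13302 genes after group means were subtracted, are given by Pearson r as a description. For C1qa they included Nsmce1 and Vhl (r = 0.90 for both), for C1qb Hhex, Rgs2 and Snx7 (0.84, 0.83 and 0.80), and for C1qc Hhex, Fcrls and Adgre1 (0.86, 0.78 and 0.77). C1qb and C1qc thus shared their closest gene, Hhex. For C3 they were Hspb1, Tcn2 and Crtap (0.84, 0.80 and 0.80), for C4b Sdk1, Pabpc1l2b-ps and Ptch1 (0.95, 0.95 and 0.94), and for C3ar1 Gstm1, Prkx and Hpcal4 (0.75, 0.73 and 0.72). For Serping1 they were Fmod, Cp and Aebp1 (0.94, 0.92 and 0.91), and for Cd59a Gkap1, Wbp1 and 2010001A14Rik (0.93, 0.91 and 0.88). C3ar1, with only 16 to 67 reads per mouse, had the weakest closest match of the 8 and C4b the strongest.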

How the data were processed

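The authors sequenced whole-brain RNA with 1 library per mouse. Per the labels' processing notes, reads were aligned to GRCm38 with STAR and genes quantified with Salmon, and the deposited values are estimated counts, not normalized, for 16318 genes. How the table was filtered is not given in the sources used here. A further 53 per-sample columns (37 of CPM and 16 of counts) and the authors' own fold changes, p-values and FDR were not used here. Counts were rounded; 90.5% lay within 0.01 of a whole number. Totals ran from 14917174 to 47613792, and counting error limits mainly C3 and C3ar1. None of 48 replicate pairs differed by sampling noise alone (mean chi-square per gene at least 7.58).

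Genes kept by filterByExpr over the 4 groups (16303) entered the quasi-likelihood test of edgeR 4.0.16 in R 4.3.3 after TMM scaling, the model holding treatment and sex, with p-values adjusted by Benjamini and Hochberg's method over all genes, threshold 0.05. CPM are TMM-scaled. Log2 CPM for slopes, levels and correlations carry a prior count of 2. Single values were compared by exact permutation of treatment within sex (77616 labelings). Transcript length is that of the longest GENCODE transcript. Genes named were the complement genes, called genes of the wider list and the most abundant not called, and the 3 genes most like each by r (mean log2 CPM 1 or more). P2ry12, Tyrobp, Tmem119, Sall1, Laptm5, Csf1r, Slc2a5, Selplg, Mrc1, Pf4, Cd163, Lyve1, Ly6c2, Itgam, Itgb2, C4a and Cd59b were named after their values were seen. A gene picked by the likeness rule is left out of the text. Genes and lists were chosen with earlier results of these data known. Alternatives were limma 3.58.1 with voom, DESeq2 1.42.0, RLE scaling, no filter, a minimum of 10 counts per mouse, a model without sex, library name form as covariate or each form alone, sample quality weights, 1 surrogate variable (sva 3.50.0), length slope, microglia level, removal of each library's loess trend on length and GC, and each mouse left out. The library name forms came from a supplementary table of the study. Procedures were tested on simulated data.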

Additional observations from a re-analysis of the deposited data

How the results depend on the processing

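No mouse number occurs in more than 1 group. The paper reports that treatment was randomized among the mice of each cage. The cage of a mouse is not among the sample labels used here, so no model or permutation could take it into account. The fall of C1qb and C3ar1 was called under all alternatives except each name form alone, the length slope and the microglia level. Cd59a also lost its call when the name form was a term (adjusted p = 0.0562), with a surrogate variable (adjusted p = 0.0986) and with length and GC trends removed (adjusted p = 0.147). The complement genes called numbered 0 in each name form alone, with the length slope and with the microglia level, and 2 to 4 with 1 mouse left out. C1qa was called without PBS female 84 or 85, PBS male 82 or 101, or treated male 89 or 93. Calls over all genes (5144) numbered 2984 without a sex term, 1999 with the name form as covariate, 0 in each name form alone, 2110 with 1 surrogate variable, 0 with the length slope, 2611 with length and GC trends removed, 1 with the microglia level, and 2289 to 6614 with 1 mouse left out; PBS male 90 (2289), treated females 98 and 71 (3005 and 3332) and treated males 88 and 81 (3121 and 3263) moved it by over 1.5 times. In the same order the wider complement list (5) had 2, 0, 0, 0, 1, 0, 1 and 0 calls, and 0 to 8 with 1 mouse left out, being 0 without PBS male 90, 1 without treated female 98, 2 without treated female 72 or treated males 81 or 88, 3 without PBS female 73, treated female 71 or treated male 74, and 8 without PBS male 102 or treated male 93. With length and GC trends removed, 58.5% of called genes were higher, beside 49.1%.

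Among log2 fold changes for treatment, C4b turned to -0.10 in the smaller name form, -0.077 with 1 surrogate variable, -0.35 with the length slope, -0.014 with length and GC trends removed and -0.0077 with the microglia level, where C1qa and C1qc turned to 0.016 and 0.060. None of the turned values was called. For sex, Cd59a (-0.01) turned to 0.022 with voom and ranged from -0.063 to 0.11 with 1 mouse left out, and C1qa turned to -0.0081 with the microglia level, added after seeing the data. The sex calls over all genes (9) were 26 with DESeq2. The C3 interaction ranged from -0.61 to 0.18 with 1 mouse left out. The causes were not tested. The ratio of C1qb to C1qc kept an exact permutation p of at most 0.00143 with any 1 mouse left out, an alternative added after seeing the data.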
